A study of Mus musculus with 24 samples.

Results

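The expression of 10 genes of the major histocompatibility complex (MHC) class I pathway was followed in mouse liver on 2 diets. They were the 10 rows of the count table, of 56205 gene rows in all, whose mouse symbol is H2-K1, H2-D1, B2m, Tap1, Tap2, Tapbp, Psmb8, Psmb9, Psmb10 or Nlrc5. All 10 passed the filter on low counts that left 14109 genes for testing. Poly(A) RNA was sequenced from whole livers of C57BL/6J mice that had spent 20 weeks on a methionine-choline deficient (MCD) diet (n = 12) or on its control diet (n = 12). The series describes 6 animals per diet and sex, but no library carries a sex, a litter or a batch in its labels, and the age of these animals was not given in the sources used here. The mice carried no engineered allele, and by the study's methods the MCD diet was rich in fat. The labels do not say which libraries share a cage or a preparation day, so the tests measure the spread between these libraries.

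Class I molecules show peptides from inside a cell to CD8+ T cells. Proteasomes cut cellular proteins, the TAP transporter carries the peptides into the endoplasmic reticulum, and tapasin and its partners load them onto a heavy chain bound to β2-microglobulin. In cells exposed to interferon-γ, 3 catalytic subunits of the proteasome are replaced by inducible versions, which makes the immunoproteasome, and Nlrc5 acts as a transactivator of class I genes. In liver, hepatocytes, sinusoidal endothelial cells, Kupffer cells and incoming leukocytes can all carry class I molecules.

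Of the 10 genes, 7 lie on mouse chromosome 17 in the MHC region, between positions 33915899 and 35267499 of GRCm38 (mm10), a span of 1352 kb. Psmb9, Tap1, Psmb8 and Tap2 are packed there within 34.3 kb. H2-K1 (17:33996017-34000347, minus strand) and H2-D1 (17:35262730-35267499, plus strand) are 1262 kb apart. B2m is on chromosome 2 (122147686-122153083, plus strand). Psmb10 (105935735-105938444, minus strand) and Nlrc5 (94434356-94527272, plus strand) are on chromosome 8.

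RefSeq promoter windows, which run from 250 bases before to 50 bases after a transcription start (GRCm38.p6), were found for 8 of the 10 genes. Those of H2-K1, H2-D1, B2m and Tap1 are printed because the diet differences divided these genes and the letters let a reader see what their starts share. Capitals mark a pair of GAAA units 2 bases apart (the core of an interferon-stimulated response element), GAANNGAAA, GGGGATTCCCC, TGACG and CCAAT, each searched on both strands, so that a match on the other strand appears as its reverse complement (TTTCACTTC, CGTCA or ATTGG). TTCNNNGAA was searched too and had no match in these 4 windows. The 2 motifs that begin with GAA could overlap each other, and 0 pairs of matches overlapped in any window of these genes.

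H2-K1, chr17:34000298-34000597, minus strand: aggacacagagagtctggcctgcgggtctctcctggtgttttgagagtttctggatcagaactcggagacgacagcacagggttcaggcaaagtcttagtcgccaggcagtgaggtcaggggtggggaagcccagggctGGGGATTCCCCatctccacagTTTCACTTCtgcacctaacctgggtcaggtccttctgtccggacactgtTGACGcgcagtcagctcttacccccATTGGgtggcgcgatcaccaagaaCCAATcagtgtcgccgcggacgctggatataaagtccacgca

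H2-D1, chr17:35262844-35263143, plus strand: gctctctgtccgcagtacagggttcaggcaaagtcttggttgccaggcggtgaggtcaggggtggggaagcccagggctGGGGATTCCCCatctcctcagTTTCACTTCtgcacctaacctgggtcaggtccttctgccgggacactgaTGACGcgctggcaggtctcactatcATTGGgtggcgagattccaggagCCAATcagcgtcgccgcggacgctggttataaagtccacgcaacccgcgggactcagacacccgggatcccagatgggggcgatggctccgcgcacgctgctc

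B2m, chr2:122147437-122147736, plus strand: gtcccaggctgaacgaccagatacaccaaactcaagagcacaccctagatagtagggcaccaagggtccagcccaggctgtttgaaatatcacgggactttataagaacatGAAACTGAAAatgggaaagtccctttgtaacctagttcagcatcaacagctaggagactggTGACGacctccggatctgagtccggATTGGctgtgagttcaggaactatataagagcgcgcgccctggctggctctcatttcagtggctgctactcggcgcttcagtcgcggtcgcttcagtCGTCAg

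Tap1, chr17:34187306-34187605, plus strand: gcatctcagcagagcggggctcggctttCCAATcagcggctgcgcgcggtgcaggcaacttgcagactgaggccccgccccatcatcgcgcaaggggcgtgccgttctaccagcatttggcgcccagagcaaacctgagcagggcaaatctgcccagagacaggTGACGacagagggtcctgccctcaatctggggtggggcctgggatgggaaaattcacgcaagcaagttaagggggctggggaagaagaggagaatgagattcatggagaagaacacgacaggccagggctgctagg

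The H2-K1 and H2-D1 windows aligned over 239 bases, of which 211 (88.3%) were identical. Both held GGGGATTCCCC, which occurred in 10 of all 32851 windows of the same length (0.0304%), belonging to 9 genes, 3 of them on chromosome 17 (H2-K1, H2-D1 and H2-Q6). Both also held GAANNGAAA, found in 7.52% of all windows. B2m alone of the 8 genes held the GAAA pair (3.44% of all windows), beginning 139 bases before its start. GAANNGAAA is that pair with an A left out of its first unit. The H2-K1 and H2-D1 windows are thus not shown to lack an interferon response element. TGACG was present in the windows of H2-K1, H2-D1, B2m, Tap1 and Psmb9 (20.8% of all windows), and CCAAT in those of H2-K1, H2-D1, B2m, Tap1, Tapbp and Psmb9 (37.4%). TTCNNNGAA was found only in the window of Psmb8 among the 8 genes (8.30% of all windows). The Tap1 and Psmb9 windows share 275 of their 300 bases, read in opposite directions, since the genes start head to head. GAANNGAAA, GGGGATTCCCC and TGACG were chosen after the sequences had been read. A match describes the letters and does not show that a factor binds.

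Before the comparison, 1 library has to be set apart. Total counts ran from 16793207 to 24915175 in control and from 16388650 to 24577848 in MCD libraries, and every MCD library had a larger TMM factor (1.07 to 1.26) than any control library (0.642 to 0.973). Control replicate 12 had the lowest factor, the fewest genes detected (17469) and a median correlation of 0.918 with the other control libraries, against 0.952 to 0.968 for the rest. It was the highest of the 12 control libraries for 8 of the 10 class I genes, while this held for 29.3% of all tested genes. For H2-K1, B2m, Tap2, Psmb8, Psmb9 and Psmb10 it was the highest of all 24 libraries, an order that depended on its low factor: scaled by total counts alone it was the highest of 24 for H2-K1 (2853 CPM) and ranked between 5 and 15 for the other genes of these. Its summed leukocyte and macrophage markers were unremarkable (188 CPM, rank 6 of 12), whereas its summed hepatocyte markers, its summed T and NK cell markers and its summed constitutive proteasome subunits were the highest of the controls. The log2 fold changes of the 10 genes are given with and without it, and the SDs of control levels include it unless stated otherwise. CPM below means read counts scaled to a common library size with TMM factors, and levels compared between genes are per kilobase (kb) of the longest coding transcript.

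**Figure D1:**
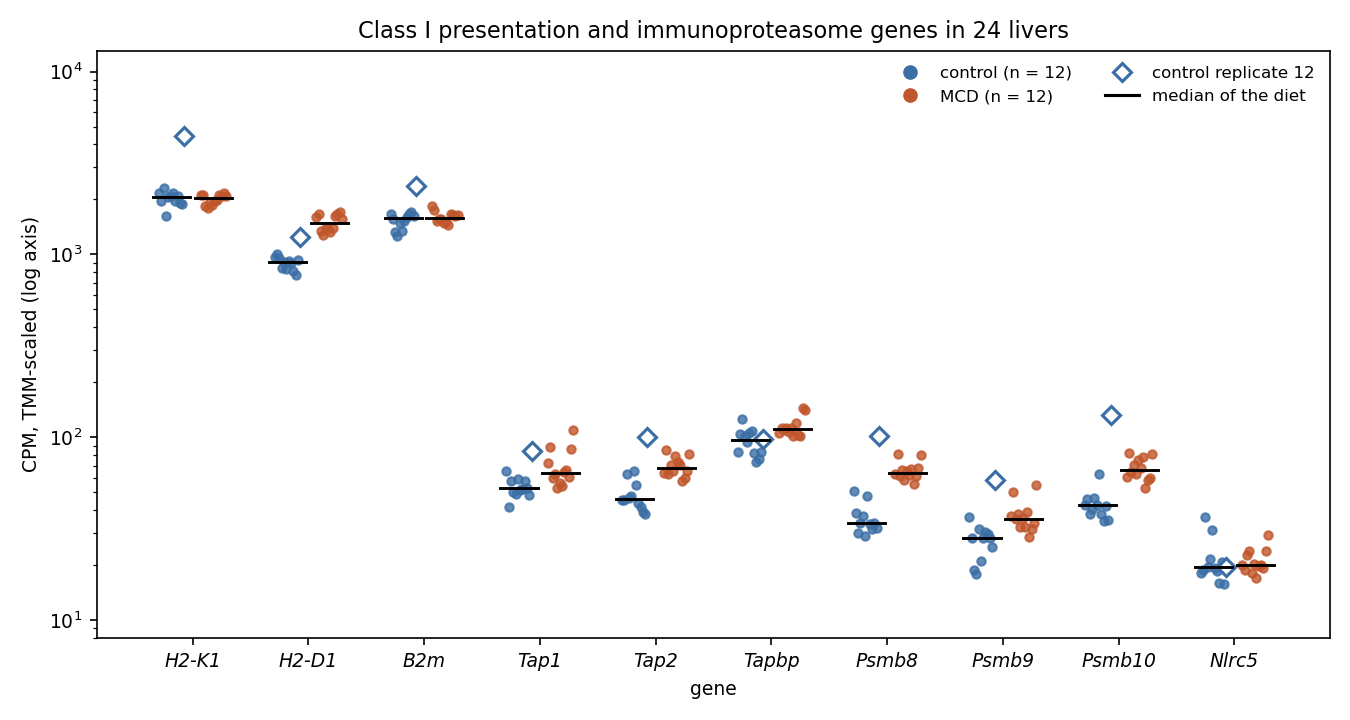
TMM-scaled CPM (log axis) of the 10 class I genes in each of 24 livers, with control in blue, MCD in orange, control replicate 12 as an open diamond and bars at the median of each diet. H2-D1 is the gene whose diets do not overlap (control at most 1242, MCD at least 1276 CPM), and control replicate 12 sits above the other controls for 8 genes.

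The levels spanned a wide range. In control livers B2m was the most abundant at 1856 ± 326 CPM per kb (SD, n = 12, as for all levels here), followed by H2-K1 at 1372 ± 446 and H2-D1 at 439 ± 57.9. The processing and transport genes were far lower, from Psmb10 at 38.3 ± 20.5 CPM per kb through Tapbp (32.6 ± 5.36), Psmb8 (25.6 ± 12.4), Psmb9 (21.8 ± 7.77) and Tap1 (18.9 ± 3.65) to Tap2 at 15.3 ± 5.03. Nlrc5 was the least abundant at 2.81 ± 0.828 CPM per kb. The SD ranges of B2m and H2-K1 overlapped in control livers, as did those of each pair of neighbours from Psmb10 down to Tap2. Without control replicate 12, B2m (1776 ± 176 CPM per kb) and H2-K1 (1247 ± 113) were apart by more than their SDs, as were Tapbp (32.5 ± 5.6) and Psmb8 (22.2 ± 4.32), and the order of the 10 genes was the same. In MCD livers B2m (1861 ± 132) and H2-K1 (1238 ± 76.1) were likewise apart, and H2-D1 reached 711 ± 74.2 CPM per kb. Psmb8 (40.4 ± 4.75) and Tapbp (39.3 ± 4.93 CPM per kb) changed places in the order, with overlapping SD ranges, and Nlrc5 stayed last at 2.78 ± 0.445.

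The question for each gene was whether its level differed between the diets. With edgeR's quasi-likelihood test over all 14109 genes, at an FDR ≤ 0.01 and an absolute log2 fold change (log2FC) above 0.5, H2-D1 and Psmb8 rose and 0 of the 10 genes fell. At an unadjusted p under 0.05, 7 were higher and 0 lower, and the share of all genes at that limit is not given here. DESeq2 and limma-voom called 0 of the 10 lower as well, while of all 14109 genes they called 2275 and 2456 lower. Among all tested genes 19.2% were called higher and 19.1% lower (38.3% in either direction), so the 2 of 10 called higher are close to the background share. The median log2FC of the 10 genes was 0.33, beside -0.10 for all tested genes. Without control replicate 12, 5 of the 10 were called higher (21.5% of all genes) and 0 lower (17.9%; 39.4% in either direction), with Tap2, Psmb9 and Psmb10 added, and the medians were 0.47 and -0.04. With the fold limit dropped and the FDR limit at 0.05, 7 of the 10 passed as higher and 0 as lower (26.5% and 37.0% of all genes). Scaling by total counts alone moved the median log2FC of all genes up by 0.37 and called 7 of the 10 genes higher and 0 lower (32.2% and 6.01% of all genes), with 84.3% of all calls then higher. On that scale H2-D1 had 1.06, B2m 0.38 and Nlrc5 0.33, so that B2m and Nlrc5 moved by about as much as the median gene did. Upper-quartile factors called 5 of the 10 higher and 0 lower (23.1% and 12.1% of all genes), and a log2 limit of 1 called 0 in either direction (13.2% and 4.86%). Higher calls numbered 3, with 0 lower, in limma-voom (20.3% and 17.4% of all genes), with a minimum of 10 counts per library (15.4% and 16.1%) and with the replicate number as a block (19.7% and 17.2%). In whole liver, fewer cells of a type and less RNA per cell cannot be told apart.

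**Figure D2:**
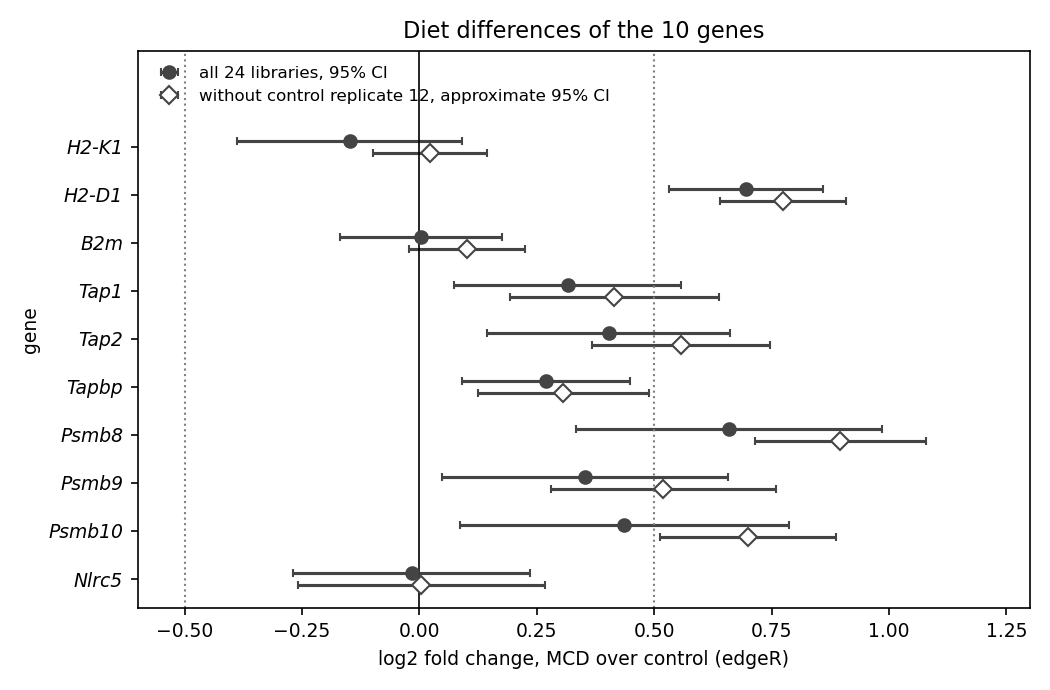
Log2 fold change of MCD over control for the 10 genes (edgeR, n = 12 and 12), with 95% confidence intervals, as filled circles for all 24 libraries and open diamonds without control replicate 12. H2-D1 and Psmb8 lie beyond the dotted limit of 0.5 with all libraries, and Tap2, Psmb9 and Psmb10 join them without that library.

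Of the classical heavy chains H2-D1 rose and H2-K1 was not called. H2-D1, which encodes the D heavy chain, ran from 770 through a median of 913 to 1242 CPM in control livers and from 1276 through 1478 to 1701 CPM in MCD livers. All 12 MCD livers were above every control liver, a separation toward higher MCD values shown by 9.50% of all tested genes (14.4% in either direction, 4.88% toward lower values). Its log2FC was 0.70 (SE 0.08, edgeR FDR 3.16e-08), and 0.77 without control replicate 12 (edgeR FDR 2.24e-10). H2-K1, which encodes the K heavy chain, ran from 1619 through 2066 to 4445 CPM in control and from 1787 through 2028 to 2160 CPM in MCD livers. The diets overlapped throughout, with the MCD livers inside the control range and the 4445 CPM belonging to control replicate 12. Its log2FC was -0.15 (SE 0.12, 95% CI -0.39 to 0.09, edgeR FDR 0.272). The sign turned without control replicate 12 (0.02, edgeR FDR 0.75), with upper-quartile factors and with total counts alone, where it reached 0.25 (edgeR FDR 0.00990). These genes resemble each other: 8.22% of the 51-base windows of the H2-K1 transcript and 13.7% of those of H2-D1 occur exactly in other genes, mainly other class I heavy chains, so reads there could be assigned to either or dropped.

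The ratio of H2-K1 to H2-D1 counts inside a library is free of library scaling. It ran from 1.93 through 2.31 to 3.58 in control livers and from 1.24 through 1.34 to 1.47 in MCD livers. Every MCD liver was below every control liver. The mean log2 ratio was lower by 0.80 in MCD, that is -0.80 (two-sided permutation test of 100000 resamples, p = 2e-05, the smallest these resamples give; adjusted over 7 ratios, 4.67e-05), and -0.75 without control replicate 12.

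B2m, the light chain that every class I heavy chain needs, ran from 1268 through 1579 to 2359 CPM in control and from 1445 through 1586 to 1841 CPM in MCD livers. With TMM factors the medians were nearly equal and the ranges overlapped. Scaled by total counts alone the diets were apart, at no more than 1574 CPM in control and at least 1684 CPM in MCD livers. That scale moved the median log2FC of all genes up by 0.37, and the share of all genes apart on it is not given here. With TMM factors the log2FC of B2m was 0.0039 (SE 0.08, 95% CI -0.17 to 0.18, edgeR FDR 0.970), and 0.10 without control replicate 12 (edgeR FDR 0.139). Set against it, the H2-D1 to B2m count ratio ran from 0.449 through 0.590 to 0.716 in control and from 0.818 through 0.937 to 1.05 in MCD livers, with all 12 MCD livers above every control (log2 difference 0.68, permutation test, adjusted p = 4.67e-05; 0.67 without control replicate 12). The H2-K1 to B2m ratio differed by -0.12 on the log2 scale (adjusted p = 0.117, permutation test; -0.08 without that library).

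**Figure D3:**
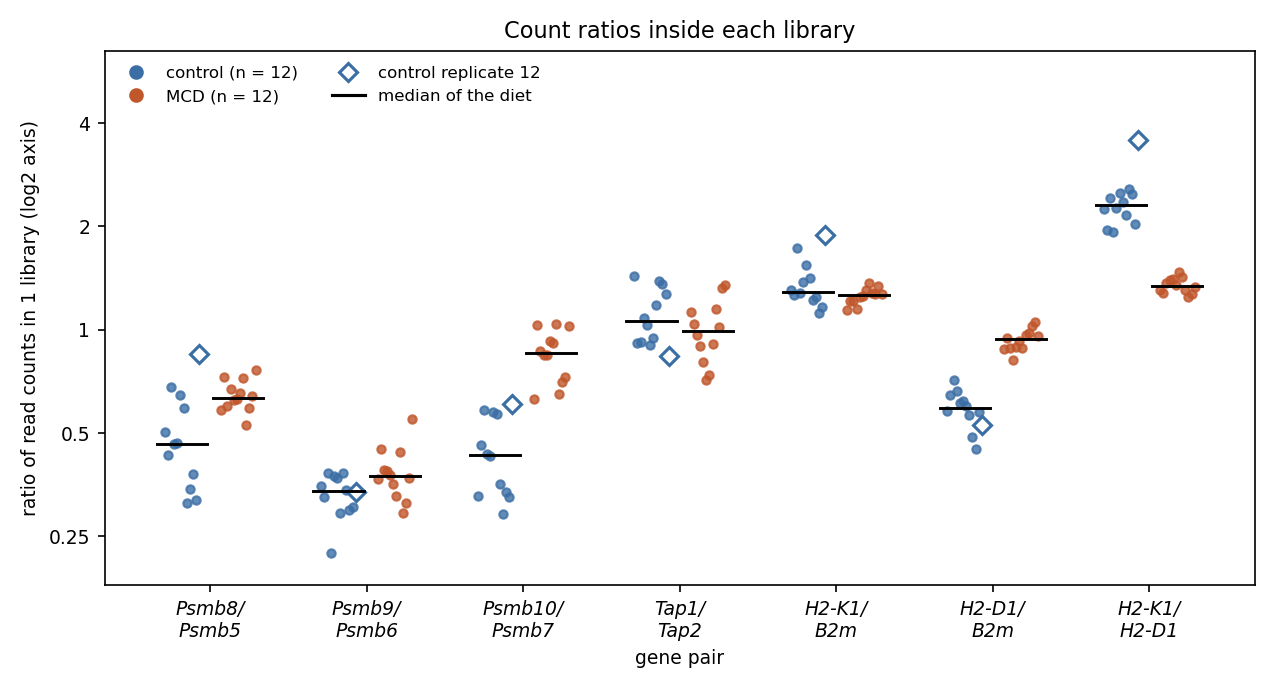
Ratio of read counts of 2 genes within 1 library (log2 axis) for 7 gene pairs, with each of 12 control (blue) and 12 MCD (orange) livers as a point, control replicate 12 as an open diamond and bars at the medians. The diets do not overlap for H2-K1/H2-D1, H2-D1/B2m and Psmb10/Psmb7.

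Both TAP genes, whose products pair to form the peptide transporter, were higher in MCD livers on average, with overlapping diets. Tap1 ran from 41.8 through 52.5 to 84.1 CPM in control and from 52.7 through 63.6 to 110 CPM in MCD livers, with 3 MCD livers above every control (all 12 when scaled by total counts alone). The share of all genes apart on that scale is not given here. The Tap1 log2FC of 0.32 (SE 0.12, edgeR FDR 0.0219) was not called, since it passed neither the FDR nor the fold limit. The 0.42 without control replicate 12 (edgeR FDR 0.00151) was not called because the fold limit was not reached. Over the alternative settings it reached at most 0.70, and Tap1 was called higher with total counts alone. Tap2 ran from 38.0 through 46.1 to 100 CPM in control and from 57.7 through 68.0 to 85.3 CPM in MCD livers. Control replicate 12 was the highest liver, and 7 of the 12 MCD livers were above the other 11 controls. Its log2FC was 0.40 (SE 0.13, edgeR FDR 0.00697), and it was called without that library (0.56, edgeR FDR 9.13e-06). Over the alternative settings it reached at most 0.79, and Tap2 was called higher with total counts alone. The ratio of Tap1 to Tap2 counts did not pass the test (log2 difference -0.15, permutation test, adjusted p = 0.223).

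Tapbp encodes tapasin, which bridges TAP and the empty heavy chain. It ran from 72.9 through 96.2 to 126 CPM in control and from 101 through 110 to 144 CPM in MCD livers. The upper controls overlapped the lower MCD livers, and 2 MCD livers exceeded every control. The log2FC was 0.27 (SE 0.09, edgeR FDR 0.00888), under the fold limit with and without control replicate 12 (0.31 without). Over the alternative settings it reached at most 0.62, and Tapbp was called higher with total counts alone. Its exons overlap those of Zbtb22 on the same strand. Exons of Tap1 and Psmb9 overlap on opposite strands, as do exons of Tap2, Tapbp, Psmb8 and Nlrc5 with non-coding genes or gene models, and whether the counting used strand was not given in the sources used here.

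Of the 3 immunoproteasome subunits, Psmb8 rose, and Psmb9 and Psmb10 were not called with all 24 libraries in edgeR with TMM factors. Both were called without control replicate 12, with upper-quartile factors and with total counts alone, and Psmb10 also with limma-voom, with a minimum of 10 counts per library and with the replicate number as a block. Psmb8, which takes the place of Psmb5, ran from 29.0 through 34.0 to 102 CPM in control and from 55.5 through 64.1 to 80.5 CPM in MCD livers. All 12 MCD livers were above the 11 other controls and all were below control replicate 12. Without that library H2-D1 and Psmb8 were the 2 of 10 genes whose diets did not overlap, a separation shown by 12.5% of all genes toward higher values and by 21.3% in either direction. The log2FC of Psmb8 was 0.66 (SE 0.16, edgeR FDR 0.000776) and 0.90 without that library (edgeR FDR 3.40e-09). Psmb10, which takes the place of Psmb7, ran from 35.0 through 42.4 to 132 CPM in control and from 53.1 through 66.0 to 82.4 CPM in MCD livers. Again the top value was control replicate 12, and the log2FC of 0.44 (SE 0.17, edgeR FDR 0.0281) was not called with it and was called without it (0.70, edgeR FDR 2.72e-07). Psmb9, which takes the place of Psmb6, ran from 17.8 through 28.3 to 58 CPM in control and from 28.4 through 35.9 to 54.8 CPM in MCD livers. The ranges overlapped widely, at a log2FC of 0.35 (SE 0.15, edgeR FDR 0.0399) and, without control replicate 12, of 0.52 (edgeR FDR 0.000357), just past the fold limit.

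Within libraries the inducible subunits were then set against the constitutive subunits they replace. The Psmb10 to Psmb7 count ratio ran from 0.290 through 0.432 to 0.609 in control and from 0.628 through 0.856 to 1.04 in MCD livers, with no overlap (log2 difference 0.97, permutation test, adjusted p = 4.67e-05; 1.02 without control replicate 12). Psmb7 itself was 113 ± 38.0 CPM in control and 80.3 ± 6.32 CPM in MCD livers (log2FC -0.50, SE 0.13, edgeR FDR 0.00142, not called because the fold limit was missed narrowly). With the summed counts of Psmb5, Psmb6 and Psmb7 as the denominator, the Psmb10 difference was 0.52 (adjusted p = 0.00218, permutation test). The Psmb8 to Psmb5 ratio ran from 0.313 through 0.466 to 0.851 in control and from 0.526 through 0.634 to 0.764 in MCD livers. These overlapped, and the log2 difference was 0.43 (permutation test, adjusted p = 0.0101), 0.51 without control replicate 12 and 0.73 over the summed denominator. The log2 ratio Psmb9/Psmb6 differed by 0.21, which missed the threshold (permutation test, adjusted p = 0.0545), while over the summed denominator Psmb9 differed by 0.38 (permutation test, adjusted p = 0.000595). Control replicate 12 was the highest control for Psmb5, Psmb6 and Psmb7 as for the inducible subunits, and its Psmb9 to Psmb6 ratio of 0.337 lay near the control median of 0.339.

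Nlrc5, the transactivator, ran from 15.7 through 19.5 to 36.8 CPM in control and from 17 through 20 to 29.4 CPM in MCD livers. The MCD livers lay inside the control range. Its log2FC was -0.02 (SE 0.12, 95% CI -0.27 to 0.24, edgeR FDR 0.917) and 0.0045 without control replicate 12 (edgeR FDR 0.977), and other scalings turned its sign too. Across livers of a diet, Nlrc5 was compared with each of the other 9 genes (18 relations, log2 CPM, n = 12 per diet). None passed an adjusted p of 0.05 by Pearson's r (permutation tests, 3 of 18 at an unadjusted p), 3 did without control replicate 12 and 2 with total counts alone. Pearson's r ran from -0.45 to 0.71 in control (median -0.03) and from -0.02 to 0.75 in MCD livers (median 0.23). The highest in both diets was that with Tapbp. In control livers r was 0.71 (permutation p = 0.00606, adjusted 0.0688) and Spearman's rho 0.55 (permutation p = 0.0687, adjusted 0.412), with r at 0.45 after leaving out the 2 livers farthest from the Nlrc5 median. In MCD livers r was 0.75 (permutation p = 0.00765, adjusted 0.0688) and rho 0.57 (permutation p = 0.0564, adjusted 0.412), with r at 0.67 after the same step. In a separate step, the sex-linked score described below was regressed out of both genes within each diet. The r with Tapbp was then 0.47 in control (permutation test, adjusted p = 0.343) and 0.74 in MCD livers (permutation test, adjusted p = 0.0625). In control livers the r with B2m went from -0.45 to -0.09. Without control replicate 12 the relations that passed were Nlrc5 with Tap2 in control (r = 0.85, permutation test, adjusted p = 0.0374; r was 0.48 with all 12 livers and 0.32 when the 2 farthest of those 12 were left out) and with Tapbp in control (0.72) and MCD livers (0.75, permutation test, adjusted p = 0.0476 for both).

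How the 10 genes varied together was described after the mean of each diet had been subtracted. Over the 45 pairs the median r was 0.52 (range -0.35 to 0.91, n = 24 libraries). Without control replicate 12 the median was 0.28 (range -0.55 to 0.74, n = 23). The pairs Tapbp with Nlrc5 (0.74), Psmb8 with Psmb9 (0.73), Psmb8 with Psmb10 (0.71) and Tap2 with Tapbp (0.69) were then highest, and B2m with Tapbp was lowest at -0.55. H2-K1 and H2-D1 had r = 0.59. All pairs share libraries and their scaling factors, and the sex-linked score described below was not subtracted. In control livers with that score above 0, B2m ran from 1268 to 1558 and Tapbp from 94.5 to 126 CPM. Below 0 they ran from 1601 to 2359 and from 72.9 to 97.9 CPM. Tapbp in MCD livers was not divided in this way (101 to 120 above and 102 to 144 CPM below 0). The part of the score in these correlations was not tested.

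**Figure D4:**
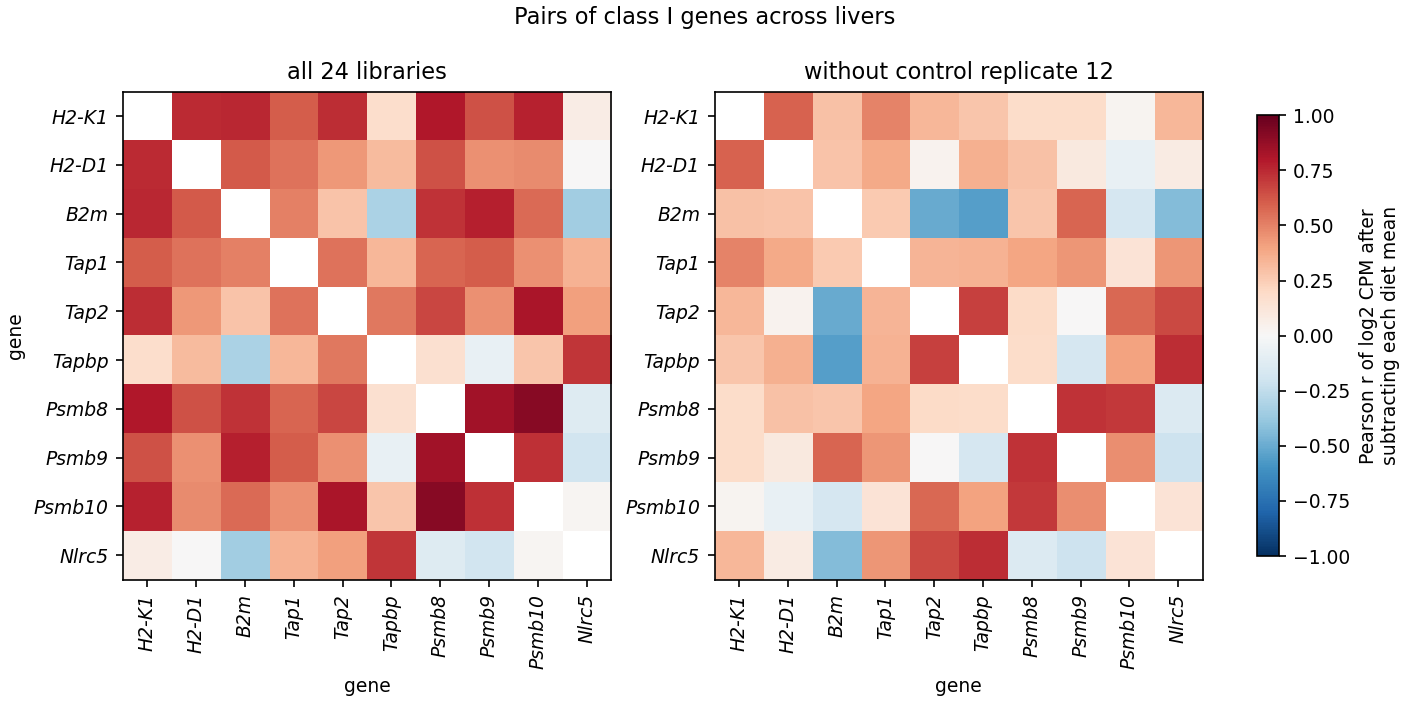
Pearson's r between each pair of the 10 genes (log2 CPM after subtracting diet means), with all 24 libraries on the left and without control replicate 12 on the right, on a colour scale from -1 to 1. The median over 45 pairs is 0.52 on the left and 0.28 on the right, and the Psmb8, Psmb9 and Psmb10 block and the Tap2, Tapbp and Nlrc5 block stay red in both.

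Of 10102 other genes with a mean of at least 5 CPM, the 10 whose deviations were most like those of the class I genes, by mean r with the 10 over 24 libraries, were Snrpa, Nmi, Stx4a, H2-Q7, Grina, Gnb2, Rnpep, Babam2, Flad1 and Trim12a (mean r from 0.60 to 0.63). Without control replicate 12 the 10 were H2-Q7, Rab3a, Trim12a, Cask, Nmi, Trafd1, Trim26, Angptl8, Hmga1 and C2, at lower mean r (0.39 to 0.45). H2-Q7, Nmi and Trim12a were in both.

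The wider pathway was read from lists. Of 20 other class I and class I-like chains, 18 were tested, of which 6 rose and 2 fell (median log2FC 0.34), and H2-T22 was called higher too without control replicate 12 (7 and 2). H2-Q10, a liver-rich chain that is secreted, fell from 2483 ± 607 to 1552 ± 159 CPM (log2FC -0.68, SE 0.11, edgeR FDR 4.14e-06), so that among the heavy chains the direction was opposite to that of H2-D1. Cd1d1, which presents lipids to NKT cells, fell from 207 ± 30.2 to 131 ± 20.3 CPM (log2FC -0.66, edgeR FDR 1.21e-06). H2-M3, which presents formylated peptides, rose from 3.52 ± 0.655 to 7.71 ± 1.36 CPM (log2FC 1.13, edgeR FDR 3.29e-09), and H2-Q4 rose from 48.4 ± 10.7 to 81.2 ± 8.80 CPM (log2FC 0.75, edgeR FDR 3.37e-07). Procr, the endothelial protein C receptor, rose by 2.53 from 0.915 ± 0.406 CPM (edgeR FDR 1.57e-10). H2-Q2, H2-M2 and H2-T10 made up the rest of those that rose. With total counts alone, the calls of H2-Q10 and Cd1d1 ended, and 0 genes of the wider lists were called lower.

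Other parts of the machinery were read in the same way, beside the 38.3% of all tested genes that were called in either direction. Of 10 other genes of peptide loading and trimming, 0 were called in either direction by edgeR, DESeq2 or limma-voom (median log2FC -0.21), with 1 higher and 6 lower at an unadjusted edgeR p under 0.05. Erap1, the aminopeptidase that trims peptides in the endoplasmic reticulum, had -0.44 (edgeR FDR 3.13e-05), and the chaperones Hspa5, Canx and Calr had -0.40, -0.21 and -0.37. Of the 3 constitutive catalytic subunits and 11 other 20S core subunits, 0 were called by the same tools. At an unadjusted p, 1 constitutive subunit was higher and 1 lower, and of the others 0 were higher and 2 lower. Among the constitutive subunits, total counts alone called 2 higher, and 1 was called lower when any of control replicates 2 to 8 or 11 or MCD replicate 1 was left out. Of 18 subunits of the 19S regulatory particle, 0 rose by any of these tools and 2 fell (1 higher and 9 lower at an unadjusted p), Psmd1 (log2FC -0.53) and Psmd11 (-0.51), of which Psmd1 was still called without control replicate 12. Both lay at the fold limit, and leaving out control replicate 1 or any of MCD replicates 2 to 8 and 10 to 12 ended both calls. DESeq2, relative log expression, upper-quartile and total-count scaling, no filter and a minimum of 10 counts ended both too. Of 9 proteasome activators and assembly factors, 0 rose by any of the tools and 1 fell (2 higher and 2 lower at an unadjusted p), Psme4, which encodes the PA200 activator (97.3 ± 13.1 to 63.3 ± 4.75 CPM, log2FC -0.62, edgeR FDR 3.18e-08). The Psme4 call ended with upper-quartile factors and with total counts alone. Without control replicate 12, Psme1, an interferon-inducible activator subunit, was called higher (log2FC 0.55, against 0.33 with it), as was Psmg4 (0.52 against 0.40).

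Of 24 regulators listed, Ifng did not pass the low-count filter, 5 of the 23 tested rose and 0 fell by any of the tools (7 were higher and 7 lower at an unadjusted p; median log2FC -0.10). These were Ifngr1 (21.8 ± 4.26 to 48.8 ± 4.82 CPM, log2FC 1.16, edgeR FDR 3.87e-11) and Ifngr2 (25.5 ± 4.94 to 37.9 ± 3.72 CPM, log2FC 0.57, edgeR FDR 7.74e-06), which form the interferon-γ receptor, Irf8 (12.8 ± 3.07 to 34.3 ± 5.76 CPM, log2FC 1.42, edgeR FDR 2.36e-10), Socs1 (0.434 ± 0.243 to 1.5 ± 0.326 CPM, log2FC 1.76, edgeR FDR 1.76e-06) and Ciita (2.7 ± 1.28 to 4.49 ± 0.703 CPM, log2FC 0.73, edgeR FDR 0.00483). Irf8 and Ciita are best known from myeloid and antigen-presenting cells. Irf1, an interferon-induced transcription factor, was not called (log2FC 0.19, SE 0.12, edgeR FDR 0.162).

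**Figure D5:**
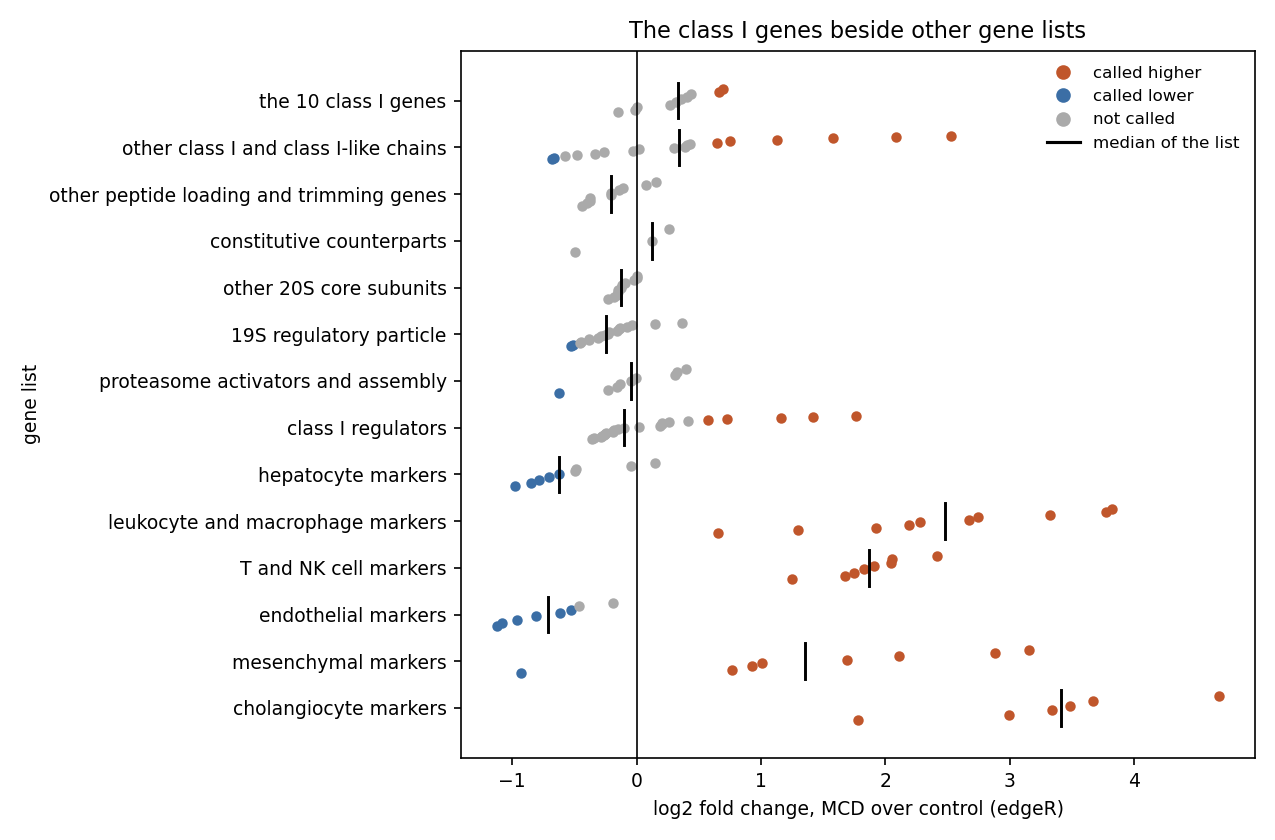
Log2 fold change of MCD over control (edgeR) for each tested gene of the 10 class I genes, the wider pathway lists and the cell type marker lists, with called genes in orange (higher) or blue (lower), the rest in grey and a bar at the median of each list. The median is 0.33 for the class I genes and 2.48 for the leukocyte and macrophage markers.

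Markers of other cells moved with the diet too. All 10 leukocyte and macrophage markers rose, among them Lyz2 and Cd68, and their summed level ran from 108 to 311 CPM in control and from 1099 to 2657 CPM in MCD livers. All 8 T and NK cell markers tested rose (Ncr1 and Prf1 did not pass the filter), with sums of 1.89 to 9.08 CPM in control and 8.87 to 28.0 CPM in MCD livers. All 6 cholangiocyte markers rose (sums 30.2 to 147 and 456 to 916 CPM), and 7 of 8 mesenchymal markers rose and 1, Lrat, fell (sums 160 to 490 and 664 to 1173 CPM). Of 8 endothelial markers 6 fell (5 without control replicate 12; sums 226 to 325 and 136 to 215 CPM), and of 9 hepatocyte markers tested 5 fell (6 without that library; sums 83733 to 196699 and 66055 to 93728 CPM; the symbol Tf matched no mouse row and was not looked up further). Alb, the defining hepatocyte transcript, lay between 37950 and 124878 CPM in the 24 livers. The part of this cell makeup in the class I differences was not tested. In control replicate 12 the leukocyte and macrophage sum was 188 CPM, below every MCD liver, and the T and NK cell sum was 9.08 CPM, inside the MCD range (without it the control sums reached 7.13 CPM).

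Both sexes were in each diet but no library is labelled with its sex, so a sex-linked expression score (log2 CPM of Xist minus the mean of 4 Y-linked genes) was used as a number only. It was above 0 in 6 libraries of each diet. In a fit with diet and the score, the score passed an FDR of 0.01 for 0 of the 10 genes (3.48% of all genes; edgeR, the lowest FDR being 0.0473 for B2m, and 3 of 10 at an unadjusted p under 0.05). Taken by side of the score, H2-D1 in MCD livers ran from 1276 to 1392 CPM above 0 (n = 6) and from 1564 to 1701 CPM below 0 (n = 6), without overlap, while in control livers it ran from 836 to 1003 and from 770 to 1242 CPM. H2-K1 in MCD livers likewise ran from 1787 to 1979 CPM above 0 and from 2077 to 2160 CPM below 0. B2m was split in both diets, from 1268 to 1558 CPM above and from 1601 to 2359 CPM below 0 in control, and from 1445 to 1559 and from 1613 to 1841 CPM in MCD livers. The interaction of diet and score passed an FDR of 0.01 for 0 of the 10 genes (0.411% of all genes), and 2 of 10 had an unadjusted p under 0.05. For the score and the interaction, the share of all genes at that unadjusted p is not given here. The edgeR FDR of the interaction was 0.413 for H2-D1 and, the lowest, 0.106 for Tapbp. Without control replicate 12 it was 0.0659 for H2-D1 and 0.0330 for Tapbp. These splits were noticed in the values and their part in the diet differences was not tested beyond these fits. With the score as a covariate 2 of the 10 genes were called higher, as without it.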

How the data were processed

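The deposited values are the authors' raw counts of reads for each Ensembl gene, 1 column per library and not normalized, from poly(A) libraries of whole liver. The submitters' processing notes name bcl2fastq, STAR 2.7.3a and mm10. For human libraries the study's methods name the exon quantification pipeline with STAR, and PISCES for quantification. For these mouse libraries the counting program, its annotation and its use of strand are not given in the sources used here. Of 56205 rows, 51745 were named from GENCODE mouse release M21, and rows without a name held 0.0808% of counts. Coordinates and transcript lengths come from the same release.

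In R 4.3.3, edgeR 4.0.16 (filterByExpr by diet, TMM factors, glmQLFit and glmQLFTest) compared 12 MCD with 12 control libraries without covariates, with Benjamini-Hochberg FDRs over 14109 genes. Calls needed an FDR ≤ 0.01 and an absolute log2FC above 0.5, the limits the study set for human liver. The log2 CPM used a prior count of 2 and the count ratios an added count of 0.5. Ratios and correlations were tested with two-sided permutation tests of 100000 resamples (scipy 1.17.1). Scripts were tested on simulated data. Alternatives used DESeq2 1.42.0, limma 3.58.1, other scalings, filters and limits, and each library left out in turn.

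The members and lists were chosen with earlier results of these data known. All 10 members are named. Of each wider list up to 4 genes with the lowest FDR are named, plus those counted in a group of 5 or fewer. H2-Q2, H2-M2, H2-T10, H2-T22 and Irf1, and the regulators named per liver, were named after their values were seen. No libraries were duplicates (0 identical pairs), since even the closest pair of one diet was more dispersed than counting noise by a factor of 11.4. Counts per library of the least counted member, Nlrc5, ran from 259 to 795, and those of H2-K1 from 28612 to 58732. With no molecular identifiers stated, counts bound counting error only.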

Additional observations from a re-analysis of the deposited data

How the results depend on the processing

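The FDR and fold limits, the library scaling and control replicate 12 decided how many of the 10 class I genes were called. Against 2 called higher, upper-quartile factors gave 5 (23.1% of all genes), total counts alone 7 (32.2%), the looser FDR of 0.05 with no limit on fold 7 (26.5%) and a log2 limit of 1 gave 0 (13.2%), and with single libraries left out the count lay between 2 and 5, the 5 being without control replicate 12 alone. None fell under any of these alternatives. H2-D1 and Psmb8 stayed higher under every one of them, H2-D1 at 0.69 to 1.06 and Psmb8 at 0.66 to 1.08 on the log2 scale (0.67 to 0.77 and 0.62 to 0.90 with single libraries left out), and past the limits except at the log2 limit of 1. The log2 fold change of H2-K1 turned positive with upper-quartile factors (0.0076), with total counts alone (0.25) and without control replicate 12 (0.0221), while the other 23 fits that left out a library gave -0.187 to -0.0912. B2m lay between -0.0263 and 0.101 with single libraries left out. The log2 fold change of Nlrc5, at -0.02, turned positive with the scalings relative log expression (0.0394), upper quartile (0.131) and total counts (0.329), without a filter (0.0174), with a minimum of 10 counts (0.0638), with limma-voom (0.0155) and DESeq2 (0.0394), with the replicate block (0.0138) and with the score term (0.0019), and lay between -0.0545 and 0.122 with single libraries left out.

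Over the wider pathway lists, 11 genes rose and 5 fell. Total counts alone gave 27 and 0, a minimum of 10 counts per library 7 and 3, the looser FDR of 0.05 with no limit on fold 19 and 30, and a log2 limit of 1 gave 7 and 0. The number that fell was 3 with relative log expression factors, 2 with upper-quartile factors, 3 without a filter and 3 with DESeq2. With single libraries left out, 11 to 14 rose (14 without control replicate 12) and 3 to 6 fell, the 3 arising without control replicate 1 and without each of MCD replicates 2 to 8 and 10 to 12. Of the 7 count ratios, 4 passed under each alternative, and that of Psmb9 to Psmb6 passed too with the summed denominator, with the replicate block and in 7 of the 24 fits that left out a library. None of the 18 Nlrc5 relations passed in the main setting, against 2 with total counts alone and 3 without control replicate 12, the latter chosen after seeing the data. The cause of these changes was not tested.

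Replicate numbers run from 1 to 12 in both diets. Deviations of same-numbered libraries correlated above 0.1 in 8 of 12 pairs (-0.28 to 0.35, median 0.23 against -0.06 for other pairs), and 2 control libraries correlated best with their own number, so the numbers were not treated as pairs. The fit with the replicate block called 3 of the 10 class I genes higher, Psmb10 being added at 0.54, and 0 lower (19.7% and 17.2% of all genes). The depth leaves the 10 genes well above the floor of 3 counts, and the spread between livers sets the precision.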

Other observations

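With TMM factors, 3 MCD livers stood above every control for Tap1 (all 12 did when scaled by total counts alone), and the regulators were read in the same libraries after these values had been seen. Tap1 was 88.4 CPM in MCD replicate 2, 86.7 in MCD replicate 11 and 110 in MCD replicate 12, while the other 9 MCD livers lay between 52.7 and 72.1 CPM. MCD replicate 12 was the highest of all 24 livers for Tap1, Irf1 (53.7 CPM), Irf9 (43.7 CPM) and Stat2 (87.8 CPM), and the highest MCD liver for Psmb9 (54.8 CPM) and Nlrc5 (29.4 CPM). Its H2-D1 (1564 CPM) and B2m (1633 CPM) lay within the range of the other MCD livers, as did H2-K1 (2077 CPM). MCD replicate 11 was the highest MCD liver for Tapbp (144 CPM) and H2-D1 (1701 CPM). No test was run on these livers, which were picked for their values.

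In control livers Nlrc5 was highest in replicates 3 and 6 (36.8 and 31.2 CPM, against at most 21.5 in the others), and the same livers were the highest of the 11 controls other than replicate 12 for Tap2 (63.0 and 65.7 CPM). Tapbp was 126 CPM in replicate 3, the highest control, and 106 CPM in replicate 6. Their H2-K1 was 2308 and 2085 CPM, the former the highest of those 11, their H2-D1 of 956 and 836 CPM lay within the range of the others, and Psmb9 was low in both (18.8 and 21 CPM, against a control median of 28.3).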
